A study of Mus musculus with 9 samples.

Results

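The genes described here are 32 genes of the ATF4 programme and of amino acid supply, taken by symbol from a count table of 17156 genes in mouse pancreatic stellate cells. All 32 were in the table, and all 32 passed the filter on low counts, which kept 13613 genes in all. They comprise 9 stress factors, 7 enzymes of serine and one-carbon metabolism, 6 enzymes that make other amino acids and 10 amino acid transporters. They were chosen by function, with earlier results of these data known.

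Pancreatic stellate cells are the tissue-resident cells from which fibroblasts of pancreatic tumours can arise. The lines were labelled as wild-type cells of the C57BL/6J strain, and every group was cultured for 4 days. The MG-CM group received control medium, DMEM with 5% fetal bovine serum, which the labels also describe as conditioned by Matrigel, the gel in which organoids grow. The CM group received medium conditioned by tumour organoids. The CM-JAKi group received the same kind of medium with 500 nM AZD1480, an inhibitor of the Janus kinases (JAKs). No vehicle is named for the groups without inhibitor, and the labels give the nutrient content of neither medium. A serum content is recorded for MG-CM only, so whether the media differed in serum is not known. Each group held 3 libraries. Replicate 1 was line PSC4, replicates 2 and 3 were PSC5-I and PSC5-II of line PSC5, and each replicate number had its own source of conditioned medium. Line and source of medium therefore cannot be told apart. The 3 libraries of a group were 2 lines with 1 of them sampled again, so the p-values measure the spread between these cultures.

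RNA was depleted of ribosomal RNA and sequenced from stranded libraries, which held 25625806 to 32466018 estimated counts each. Of 12 markers of stellate cells and fibroblasts, all 12 passed the filter. Their summed level was 6747 to 7384.5 counts per 1000000 counts (CPM) in MG-CM, 5315 to 8437 in CM and 7843 to 9857 in CM-JAKi, although desmin (Des) reached at most 3.32 CPM. Within the sum, markers went opposite ways. Dcn alone stood at 4610, 1197 and 2348 CPM in the CM libraries, against 512, 262 and 352 in MG-CM. Vim, Acta2 and Postn had lower means in CM than in MG-CM. Markers of other cells were low. The leukocyte markers summed to 22.8 to 34.9 CPM in MG-CM, 34.0 to 118 in CM and 15.9 to 32.6 in CM-JAKi, most of it Cd14, while Ptprc, which encodes the pan-leukocyte antigen CD45, was at most 0.0387 CPM. The mesothelial markers summed to 5.35 to 17.4, 3.37 to 71.2 and 7.27 to 55.3 CPM in the same order, with Msln at up to 67.1 CPM and Upk3b at most 0.271 CPM. The ductal markers summed to 27.8 to 47.4 CPM over the 9 libraries, with Epcam at most 0.180 CPM, and the endothelial markers to 3.45 to 7.85 CPM. These are bulk samples, in which fewer cells of a type and less RNA per cell cannot be told apart.

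ATF4 is a transcription factor whose mRNA is translated more efficiently when the initiation factor eIF2alpha is phosphorylated by a stress kinase. The kinases respond to amino acid shortage, unfolded protein in the endoplasmic reticulum, double-stranded RNA or lack of heme, and the shared outcome is called the integrated stress response. ATF4 binds composite C/EBP-ATF elements with a dimer partner and switches on genes that make and import amino acids and charge tRNAs, together with genes that dampen the response. Fibroblasts are the main makers of collagen, which is rich in glycine and proline. A level of Atf4 mRNA is not a measure of ATF4 protein, which was not measured.

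In conditioned medium, 19 of the 32 genes rose against control medium and 0 fell, at an adjusted p under 0.05 from edgeR's quasi-likelihood test over all 13613 genes. Of all genes tested, 4.85% were called higher and 5.39% lower by the same rule. The genes that rose comprised 6 of 9 stress factors, 4 of 7 serine and one-carbon enzymes, 4 of 6 enzymes of other amino acids and 5 of 10 transporters. The median log2 difference of the 32 genes was 0.95, against 0.01 for all genes tested, with values from -1.32 (Cbs) to 3.25 (Slc7a3). It was positive in 31 members and negative in 1, against 50.7% and 49.3% of all genes. All 3 CM libraries lay above all 3 MG-CM libraries in 21 members and below them in 1, against 16% and 16.8% of all genes. At an unadjusted p under 0.05, 26 members were higher and 1, Cbs, was lower (13.9% and 14.4% of all genes), and DESeq2 called 22 higher and 1 lower (8.87% and 9.62% of all genes). With the replicate number as a block, 19 were called higher and 1 lower (11.6% and 12.8% of all genes). The count moved with single libraries, as did the share of all genes called higher: it was 8 without MG-CM replicate 1 (2.88% of all genes), 0 without MG-CM replicate 2 (0.326%), 11 without CM replicate 1 (2.24%) and 24 without CM replicate 3 (3.8%). With only the 2 groups compared in the fit it was 10 (2.71% of all genes). All 19 genes were higher in CM under each of the 6 omissions, and without MG-CM replicate 2 their adjusted p-values ran from 0.0598 to 0.154. In all 19 every CM library lay above every MG-CM library, so leaving 1 out could hardly change the sign.

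With the JAK inhibitor in conditioned medium, 24 of the 32 genes fell against conditioned medium alone and 1, Cbs, rose. Of all genes tested, 8.93% were called lower and 10.1% higher. The log2 difference was negative in 30 members and positive in 2, against 49.2% and 50.8% of all genes. All 3 CM-JAKi libraries lay below all 3 CM libraries in 24 members and above them in 1, against 18.3% and 20.1%. The median log2 difference was -1.05, against 0.01 for all genes, and 7 of 9 stress factors, 5 of 7 serine and one-carbon enzymes, 4 of 6 enzymes of other amino acids and 8 of 10 transporters fell. With the replicate block, 27 were called lower and 1 higher (15.6% and 18.6% of all genes). The count lower was 14 without CM-JAKi replicate 2 (3.48% of all genes), 0 when replicate number 2 was left out of every group (1.32%) and 18 with only the 2 groups compared in the fit (6.11%). Against control medium, the inhibited cells showed 0 members called higher and 0 lower by edgeR, where 0.286% and 0.72% of all genes were called. The comparisons share libraries: each group of libraries enters 2 of the 3. Of the 12 markers of stellate cells and fibroblasts, 1, Dcn, was called higher in CM and 1, Vim, lower, and 3 were called higher and 1 lower on inhibition. Of all genes, 4.85% were higher and 5.39% lower in CM, and 10.1% and 8.93% on inhibition. With the replicate block, 1 marker was higher and 4 lower in CM (11.6% and 12.8% of all genes). On inhibition the block called 7 markers higher and 1 lower (18.6% and 15.6% of all genes). The mean of Dcn was 375 CPM in MG-CM, 2718 in CM and 398 in CM-JAKi, and that of Vim 1557, 765 and 1271. For Acta2 the means were 513, 71.7 and 405 CPM (adjusted p = 0.0556 in CM), and for Postn 655, 148 and 1187 CPM (adjusted p = 0.0895). In CM both passed with the replicate block (adjusted p = 0.00965 and 0.00688) and in DESeq2 (adjusted p = 0.0081 and 0.0469). The part of these markers in the differences of the members was not tested.

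**Figure D1:**
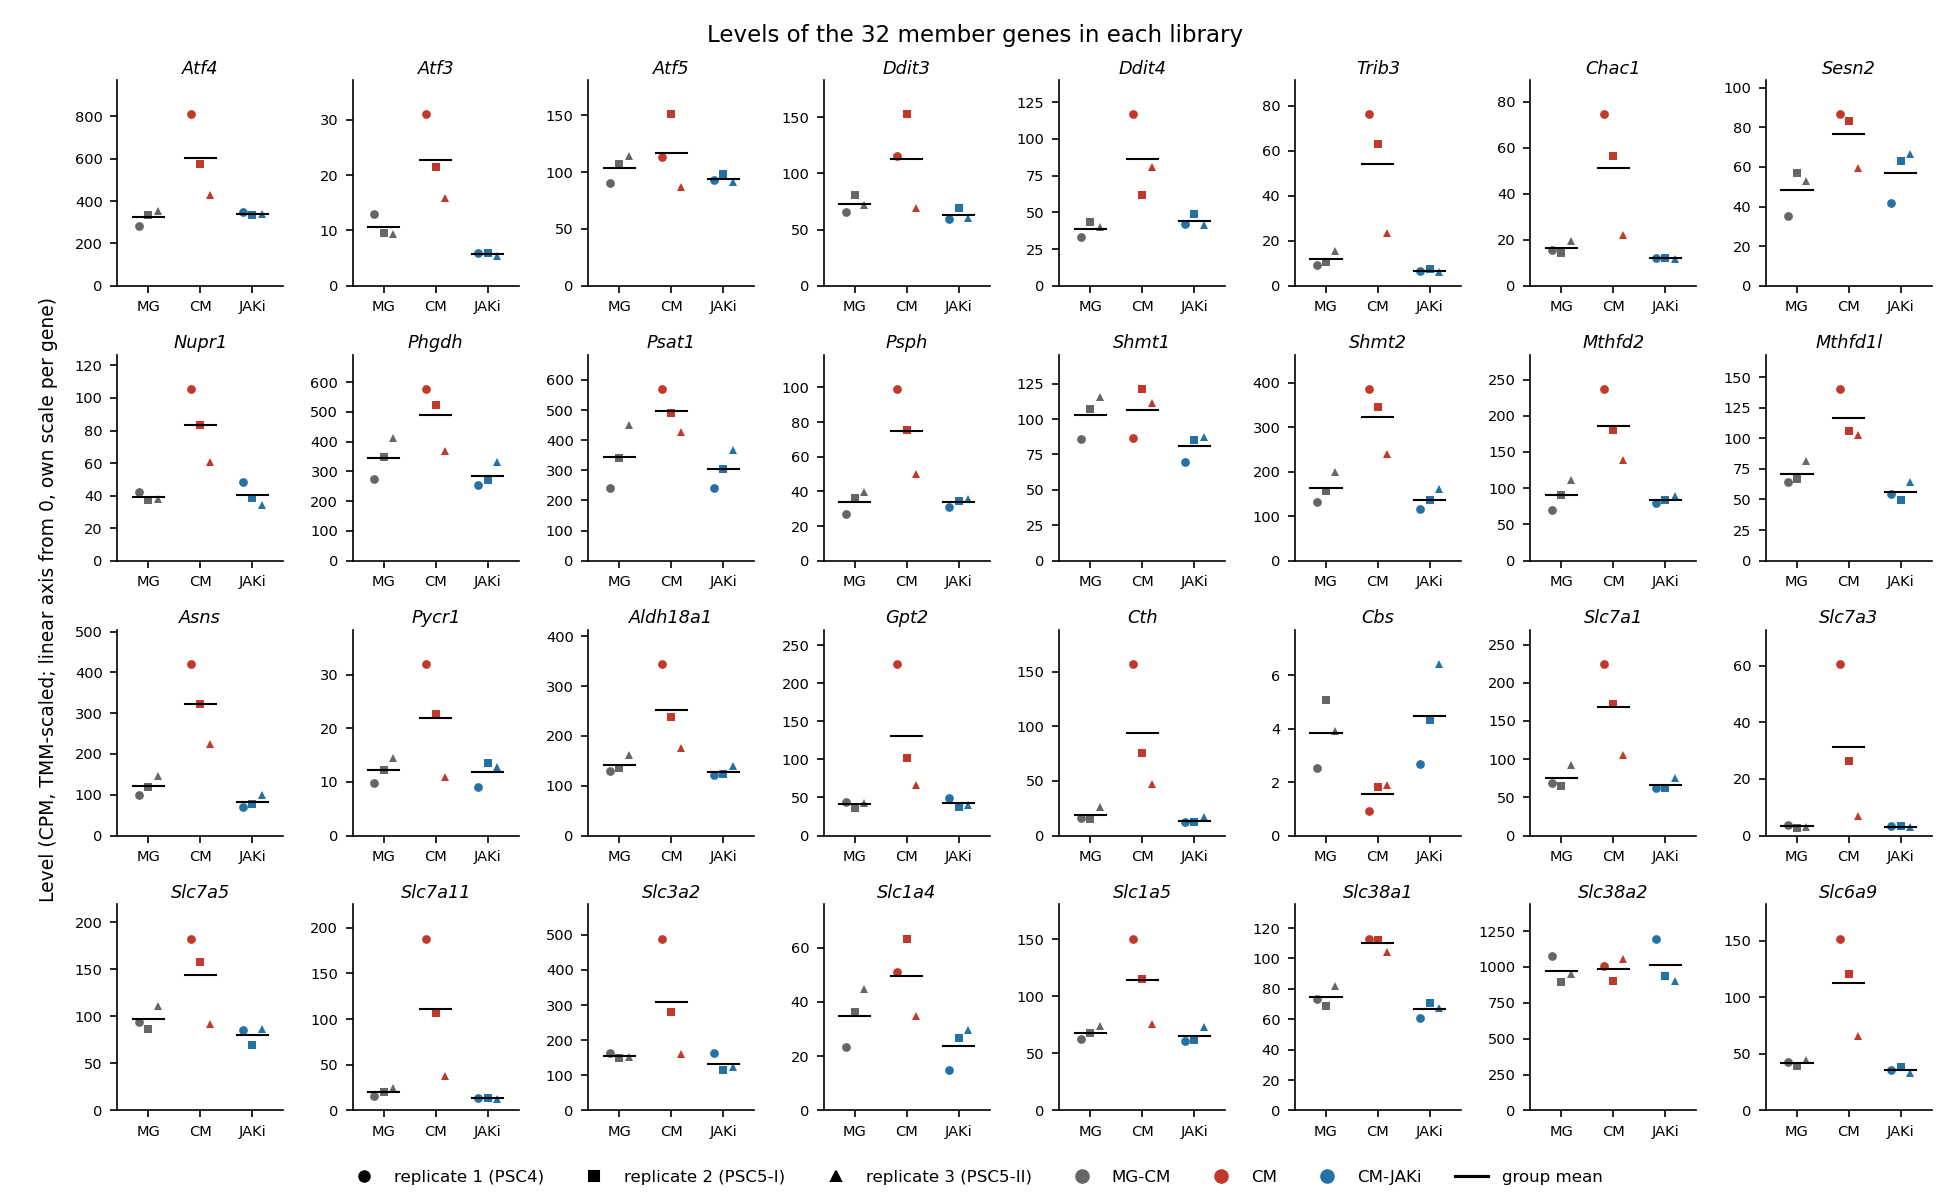
Level of each of the 32 genes in the 9 libraries, 1 panel a gene, in CPM on a linear axis from 0 with its own scale, with a shape for each replicate and a bar at the group mean. In 21 panels all 3 CM points lie above all MG-CM points, the circle of replicate 1 (PSC4) is the highest CM point in 26, and Cbs is the panel in which all CM points lie lowest.

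The element that ATF4 and its C/EBP partners bind has the core TGATGNAA, and it was looked for on both strands (TTNCATCA on the other) in the RefSeq promoter windows of GRCm38.p6. A window runs from 250 bases before to 50 after a gene's start. This build is not the one named for the counts, so it served for sequence only. By symbol, 27 of the 32 genes had a window, and 8 of these 27 (29.6%) held the core, against 4.51% of 27025 genes with a window. The 8 were Atf3, Trib3, Chac1, Nupr1, Asns, Pycr1, Slc7a11 and Slc1a4. The longer form TGATGNAAT was found in 2 members (7.41%), Nupr1 and Pycr1, against 1.08% of genes. The composite ATTGCATCA, whose other strand TGATGCAAT is 1 of the forms of TGATGNAAT, was found in the same 2 members (7.41%) against 0.222%. Of the 8 genes with the core, 6 rose in conditioned medium, with a median log2 difference of 1.26. Of the 19 with a window but no core, 10 rose, with a median of 0.83. Of the 5 with no window 3 rose, with a median of 0.74. By the same rule 4.85% of all genes tested were called higher. Whether the rise differs between these groups of members was not tested. The 32 genes were chosen as genes of the ATF4 programme and amino acid supply. Their higher share of matches can follow from that choice and is not a result of the counts. A match is a description of letters and not of binding, and known elements can lie outside these windows.

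The 4 called genes with a match and the smallest p are shown from RefSeq. They read 5′ to 3′ on the strand of the gene, with the core in capitals, and were picked for holding a match. Asns is the 250 bases before the start (chr6:7693210-7693459, minus strand), with the core in forward orientation at -23. Trib3 is 30 bases just after the start (chr2:152344028-152344057, minus strand), with the reversed core at +15. Nupr1 is the 250 bases before the start (chr7:126625471-126625720, minus strand), with the reversed core at -110. Slc7a11 is the 250 bases before the start (chr3:50443614-50443863, minus strand), with a forward core at -66 and a reversed core at -47.
Asns: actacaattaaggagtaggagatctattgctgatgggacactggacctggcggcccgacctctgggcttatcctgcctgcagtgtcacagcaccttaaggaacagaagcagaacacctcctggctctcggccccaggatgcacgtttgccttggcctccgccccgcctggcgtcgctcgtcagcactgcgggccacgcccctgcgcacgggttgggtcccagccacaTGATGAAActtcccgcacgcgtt
Trib3: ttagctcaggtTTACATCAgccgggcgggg
Nupr1: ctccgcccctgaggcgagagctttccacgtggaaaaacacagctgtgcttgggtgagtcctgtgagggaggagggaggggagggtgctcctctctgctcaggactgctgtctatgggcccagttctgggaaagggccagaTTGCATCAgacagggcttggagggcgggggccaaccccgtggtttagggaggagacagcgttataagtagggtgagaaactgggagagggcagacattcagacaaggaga
Slc7a11: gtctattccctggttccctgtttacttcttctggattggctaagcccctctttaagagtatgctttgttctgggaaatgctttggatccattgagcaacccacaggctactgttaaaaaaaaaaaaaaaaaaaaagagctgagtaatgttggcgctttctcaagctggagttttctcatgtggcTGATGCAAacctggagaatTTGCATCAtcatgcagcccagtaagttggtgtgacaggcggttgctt

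Among the stress factors, Atf4, the regulator itself, rose. Atf4 stood at 281, 335 and 352 CPM in the MG-CM libraries, 811, 574 and 428 in the CM libraries and 349, 333 and 338 in the CM-JAKi libraries. Every CM library lay above every MG-CM and CM-JAKi library, and the spread within CM was far wider than in the other groups. The means were 323 ± 36.7, 604 ± 193 and 340.2 ± 8.43 CPM (SD, n = 3), a log2 difference of 0.91 ± 0.21 (adjusted p = 0.0288) in CM against MG-CM and of -0.83 ± 0.21 (adjusted p = 0.0259) in CM-JAKi against CM. Here and below, a log2 difference is given with ± its standard error, "in CM" means against MG-CM, and "on inhibition" means CM-JAKi against CM. Trib3 encodes a pseudokinase that ATF4 induces and that in turn binds and restrains ATF4. Trib3 stood at 9.33, 10.4 and 15.6 CPM in the MG-CM libraries, 76.2, 63.0 and 23.3 in the CM libraries and 6.50, 7.42 and 6.11 in the CM-JAKi libraries. The groups did not overlap in any comparison, and Trib3 had the largest fold among the stress factors, 4.61-fold in CM. The log2 differences of Trib3 were 2.20 ± 0.40 (adjusted p = 0.0157) in CM and -3.02 ± 0.41 (adjusted p = 0.00278) on inhibition. Chac1 degrades glutathione and is induced through ATF4. Chac1 stood at 15.6, 14.3 and 19.3 CPM in the MG-CM libraries, 74.6, 56.5 and 22.0 in the CM libraries and 11.9, 12.1 and 11.6 in the CM-JAKi libraries. Its log2 difference was 1.64 ± 0.37 (adjusted p = 0.0279) in CM and -2.10 ± 0.37 (adjusted p = 0.00779) on inhibition, and the lowest CM library, replicate 3, lay only just above the highest control library.

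Atf3 encodes a repressor of the same bZIP family. Atf3 stood at 12.9, 9.54 and 9.36 CPM in the MG-CM libraries, 31.0, 21.4 and 15.9 in the CM libraries and 5.94, 5.95 and 5.34 in the CM-JAKi libraries. The CM-JAKi libraries were the lowest of the 3 groups and the CM libraries the highest, with no overlap. Atf3 differed by 1.10 ± 0.24 (adjusted p = 0.0241) on the log2 scale in CM against MG-CM and by -1.99 ± 0.24 (adjusted p = 0.00169) on inhibition. Ddit4 encodes REDD1, an inhibitor of the growth kinase complex mTORC1. Ddit4 stood at 33.1, 43.3 and 40.3 CPM in the MG-CM libraries, 117, 61.8 and 81.0 in the CM libraries and 42.2, 49.0 and 41.4 in the CM-JAKi libraries. It rose by 1.15 ± 0.21 (adjusted p = 0.0174) on the log2 scale in CM and changed by -0.97 ± 0.21 (adjusted p = 0.0173) on inhibition, and it was 1 of 2 members whose lowest CM library was replicate 2. Nupr1 encodes a small stress-induced chromatin protein. Nupr1 stood at 42.4, 37.3 and 38.1 CPM in the MG-CM libraries, 106, 83.3 and 60.7 in the CM libraries and 48.4, 38.3 and 34.3 in the CM-JAKi libraries. Its difference was 1.08 ± 0.20 (adjusted p = 0.0163) in CM and -1.04 ± 0.20 (adjusted p = 0.00983) on inhibition, and the inhibited libraries lay on both sides of the control range.

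Ddit3 encodes CHOP, a partner of ATF4 with a part in cell death. Ddit3 stood at 65.8, 81.0 and 72.1 CPM in the MG-CM libraries, 115, 153 and 69.5 in the CM libraries and 59.1, 69.5 and 60.7 in the CM-JAKi libraries. CM replicate 3 was within the control range, and the difference of 0.62 ± 0.24 (adjusted p = 0.13) in CM did not pass. Ddit3 fell on inhibition by the test, with a log2 difference of -0.83 ± 0.24 (adjusted p = 0.0428), although CM replicate 3 and CM-JAKi replicate 2 stood at the same level, and the call was lost when libraries were scaled by size alone (adjusted p = 0.0684). Sesn2, a leucine sensor and inhibitor of mTORC1, had a log2 difference of 0.66 ± 0.24 (adjusted p = 0.109) in CM, which did not pass in edgeR and passed in DESeq2 (adjusted p = 0.0443). Its levels were 35.3, 56.7 and 53.1 CPM in the MG-CM libraries and 86.6, 83.1 and 59.6 in the CM libraries, with no overlap. Its difference on inhibition was -0.42 ± 0.23 (adjusted p = 0.237). Atf5, which is under translational control like ATF4, differed by 0.17 ± 0.18 (adjusted p = 0.582) and -0.32 ± 0.18 (adjusted p = 0.249), with means of 104 ± 12.3, 117 ± 32.2 and 94.1 ± 3.93 CPM. Of the 6 stress factors called in CM, Atf4 and Chac1 lost the call without MG-CM replicate 1 (adjusted p = 0.0731 to 0.0754) or CM replicate 2 (0.0536 to 0.0618), Atf3 and Chac1 without CM replicate 1 (0.0503 to 0.0740), Atf3, Atf4 and Chac1 without MG-CM replicate 3 (0.0610 to 0.0725), and all 6 without MG-CM replicate 2 (0.0620 to 0.116). On inhibition Ddit3 lost it without any 1 of 5 libraries (0.0931 to 0.108), Atf4 without CM-JAKi replicate 2 (0.0858) or 3 (0.0701), and Ddit4 without CM-JAKi replicate 3 (0.0563). With only the groups compared in the fit, Atf4, Atf3 and Chac1 lost the call in CM (0.0545 to 0.0679), and Atf4 and Ddit3 on inhibition (0.0556 and 0.0853).

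The enzymes of serine synthesis turn a glycolytic intermediate into serine in 3 steps, and SHMT and MTHFD enzymes pass its side carbon to folate, giving glycine and formate. Psph, which carries out the last step of serine synthesis, was the member of this role with the largest log2 difference in CM. Psph stood at 26.7, 36.03 and 39.4 CPM in the MG-CM libraries, 99.1, 75.4 and 49.9 in the CM libraries and 31.1, 34.2 and 35.7 in the CM-JAKi libraries. It rose by 1.14 ± 0.24 (adjusted p = 0.0229) in CM and fell by 1.15 ± 0.24 (adjusted p = 0.0133) on inhibition, where its mean of 33.7 CPM was close to the 34.1 CPM of MG-CM. The first enzyme, Phgdh, did not pass in CM. Phgdh stood at 275, 349 and 411 CPM in the MG-CM libraries, 577, 522 and 369.8 in the CM libraries and 255, 270.2 and 333 in the CM-JAKi libraries. CM replicate 3 lay within the control range, the difference was 0.51 ± 0.20 (adjusted p = 0.14) in CM, and Phgdh fell by 0.78 ± 0.20 (adjusted p = 0.0309) on inhibition, where the groups did not overlap. Psat1, the middle enzyme, differed by 0.53 ± 0.24 (adjusted p = 0.182) in CM and -0.70 ± 0.24 (adjusted p = 0.0685) on inhibition, with means of 344 ± 104, 496 ± 71.4 and 304 ± 63.4 CPM. With the replicate number as a block, the second of these passed (adjusted p = 0.0413), as it did in DESeq2 (adjusted p = 0.0168).

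The 3 mitochondrial folate enzymes among the 32 genes, Shmt2, Mthfd2 and Mthfd1l, rose, and the cytosolic Shmt1 did not pass. Shmt2, the mitochondrial enzyme that splits serine to glycine, stood at 132, 156 and 199.8 CPM in MG-CM, 386, 345 and 239 in the CM libraries and 115, 137 and 160.0 in the CM-JAKi libraries. The CM libraries were all above the others, a log2 difference of 0.99 ± 0.22 (adjusted p = 0.0252) in CM and -1.24 ± 0.22 (adjusted p = 0.00734) on inhibition. Mthfd2, which oxidises the carbon unit in mitochondria, behaved alike in its order of libraries. Mthfd2 stood at 69.9, 91.0 and 112 CPM in the MG-CM libraries, 237, 179.7 and 139 in the CM libraries and 79.5, 83.9 and 89.8 in the CM-JAKi libraries. The log2 difference was 1.03 ± 0.21 (adjusted p = 0.0226) in CM and -1.13 ± 0.21 (adjusted p = 0.00948) on inhibition. Mthfd1l, which releases formate from mitochondria, had the smallest standard error of the role. Mthfd1l stood at 64.5, 66.4 and 81.6 CPM in the MG-CM libraries, 140.3, 106 and 103 in the CM libraries and 54.2, 49.7 and 64.0 in the CM-JAKi libraries. It rose by 0.72 ± 0.15 (adjusted p = 0.0242) and fell by 1.06 ± 0.15 (adjusted p = 0.0037) on inhibition, with no overlap in either comparison. The cytosolic Shmt1 stood at 85.7, 107 and 115 CPM in MG-CM, 86.7, 121 and 111 in the CM libraries and 69.6, 85.2 and 87.4 in the CM-JAKi libraries. The groups overlapped in CM against MG-CM, with a log2 difference of 0.05 ± 0.16 (adjusted p = 0.866) whose sign turned negative when libraries were scaled by size alone (-0.01). On inhibition Shmt1 differed by -0.40 ± 0.16 (adjusted p = 0.11), and with the replicate block it passed (adjusted p = 0.00498). Whether the changes of Shmt2 and Shmt1 differ was not tested. All 4 calls of this role in CM were lost without MG-CM replicate 1 (adjusted p = 0.0520 to 0.0651), MG-CM replicate 2 (0.0860 to 0.104) or CM replicate 1 (0.0522 to 0.0735), and that of Shmt2 without CM replicate 2 (0.0584). On inhibition Phgdh lost its call without any 1 of 4 libraries (0.0704 to 0.106) and Psph without CM-JAKi replicate 2 (0.0509). With only the groups compared in the fit, Psph and Mthfd2 lost the call in CM (0.0550 and 0.0540).

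Of the enzymes of other amino acids, Asns, which makes asparagine and is a standard reporter of amino acid shortage, had the smallest p of its role in CM. Asns stood at 99.0, 119.7 and 146 CPM in the MG-CM libraries, 421, 323 and 224 in the CM libraries and 70.9, 78.4 and 98.3 in the CM-JAKi libraries. Each CM library was above every control library, and each inhibited library was below every control library, by little for the nearest pair. The log2 difference was 1.41 ± 0.24 (adjusted p = 0.0136) in CM, a 2.66-fold level, and -1.97 ± 0.24 (adjusted p = 0.00195) on inhibition. Cth releases cysteine in the last step of transsulfuration. Cth stood at 16.0, 15.4 and 25.8 CPM in the MG-CM libraries, 157, 75.7 and 47.7 in the CM libraries and 12.1, 12.1 and 16.9 in the CM-JAKi libraries. It rose by 2.30 ± 0.42 (adjusted p = 0.0161) in CM, 4.91-fold, and fell by 2.77 ± 0.43 (adjusted p = 0.00475) on inhibition. Cbs, the enzyme before Cth in the same pathway, had differences of the opposite sign. Cbs stood at 2.54, 5.08 and 3.90 CPM in the MG-CM libraries, 0.904, 1.80 and 1.90 in the CM libraries and 2.68, 4.31 and 6.42 in the CM-JAKi libraries. All 3 CM libraries were below all 6 others. Cbs rose on inhibition, by 1.53 ± 0.42 (adjusted p = 0.0351), and its difference of -1.32 ± 0.42 (adjusted p = 0.0784) in CM did not pass. With the replicate block that difference passed (adjusted p = 0.00681), as it did in DESeq2 (adjusted p = 0.0211).

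Gpt2, a mitochondrial transaminase that makes alanine from pyruvate and glutamate, differed widely between the CM libraries. Gpt2 stood at 43.5, 36.3 and 43.2 CPM in the MG-CM libraries, 225, 101 and 66.7 in the CM libraries and 48.7, 38.1 and 40.6 in the CM-JAKi libraries. CM replicate 1 was far above every other library, and CM replicate 3 was the nearest to control. The difference was 1.68 ± 0.38 (adjusted p = 0.0286) in CM and -1.63 ± 0.38 (adjusted p = 0.021) on inhibition. Aldh18a1 carries out the first steps from glutamate to proline. Aldh18a1 stood at 129, 135 and 162 CPM in the MG-CM libraries, 345, 237 and 175 in the CM libraries and 121, 124 and 139 in the CM-JAKi libraries. It rose by 0.83 ± 0.22 (adjusted p = 0.0458) and fell by 0.98 ± 0.22 (adjusted p = 0.018) on inhibition, with no overlap in either comparison, and its call in CM was lost when libraries were scaled by size alone (adjusted p = 0.0514). Pycr1, the last enzyme of proline synthesis, differed by 0.84 ± 0.35 (adjusted p = 0.154) in CM and -0.89 ± 0.35 (adjusted p = 0.108) on inhibition, where DESeq2 called it (adjusted p = 0.0489). Its CM replicate 3 stood at 10.9 CPM, within the control range of 9.88 to 14.4. Of the 4 calls in CM, Aldh18a1 and Gpt2 were lost without MG-CM replicate 1 (adjusted p = 0.0675 to 0.107) or 3 (0.0722 to 0.0741), Aldh18a1 without CM replicate 1 (0.0882) or 2 (0.0738), and all 4 without MG-CM replicate 2 (0.0666 to 0.154). On inhibition the rise of Cbs was lost without any 1 of 5 libraries (adjusted p = 0.0557 to 0.106), the call of Gpt2 without CM-JAKi replicate 2 (0.0800) or 3 (0.0645) and that of Aldh18a1 without CM-JAKi replicate 2 (0.0677). With only the groups compared in the fit, Aldh18a1 and Gpt2 lost the call in CM (0.0909 and 0.0652), and Gpt2 and Cbs on inhibition (0.0538 and 0.0613).

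Among the transporters, Slc7a11, the cystine carrier of system xc-, and Slc7a3, a carrier of arginine and lysine, had the largest differences. Slc7a11 stood at 15.4, 19.7 and 24.7 CPM in the MG-CM libraries, 188, 107 and 37.2 in the CM libraries and 13.4, 13.9 and 12.5 in the CM-JAKi libraries. The CM libraries lay above all others and were far apart from each other. Slc7a11 rose by 2.47 ± 0.49 (adjusted p = 0.0199) in CM and fell by 3.06 ± 0.50 (adjusted p = 0.0058) on inhibition. Slc7a3 stood at 3.84, 2.77 and 3.18 CPM in the MG-CM libraries, 60.6, 26.3 and 6.73 in the CM libraries and 3.29, 3.29 and 2.98 in the CM-JAKi libraries. Slc7a3 was low in all 6 libraries outside uninhibited conditioned medium, and CM replicate 3 was much nearer to them than CM replicate 1. Slc7a3 differed by 3.25 ± 0.65 (adjusted p = 0.021) in CM and -3.29 ± 0.65 (adjusted p = 0.0117) on inhibition. Slc7a1, the widely expressed carrier of the same cationic amino acids, moved in the same directions at a smaller size. Slc7a1 stood at 68.6, 65.1 and 92.5 CPM in the MG-CM libraries, 225, 172 and 106 in the CM libraries and 62.2, 62.0 and 75.8 in the CM-JAKi libraries. Its log2 difference was 1.15 ± 0.26 (adjusted p = 0.0268) in CM and -1.33 ± 0.26 (adjusted p = 0.0104) on inhibition, with no overlap.

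Slc6a9 encodes the glycine transporter GlyT1. Slc6a9 stood at 43.1, 39.2 and 44.4 CPM in the MG-CM libraries, 152, 121 and 65.8 in the CM libraries and 35.4, 38.0 and 32.6 in the CM-JAKi libraries. It rose by 1.42 ± 0.25 (adjusted p = 0.0155) and fell by 1.67 ± 0.25 (adjusted p = 0.00449) on inhibition, and every CM library was above every other. Slc38a1, a carrier of glutamine and other small neutral amino acids, moved least among the called genes and with the narrowest spread. Slc38a1 stood at 73.5, 68.5 and 81.9 CPM in the MG-CM libraries, 113, 112 and 105 in the CM libraries and 61.1, 71.0 and 67.7 in the CM-JAKi libraries. Its SD within CM was 4.70 CPM, and its log2 difference was 0.56 ± 0.09 (adjusted p = 0.0119) in CM, the smallest adjusted p of the members in that comparison, and -0.72 ± 0.09 (adjusted p = 0.00206) on inhibition. Slc38a2, the related carrier that cells increase when amino acids run short, did not pass in any comparison. It stood at 1073, 894 and 951 CPM in MG-CM, 1007, 903 and 1052 in the CM libraries and 1197, 938 and 904 in the CM-JAKi libraries, with overlapping groups. Its log2 difference of 0.02 ± 0.14 (adjusted p = 0.939) in CM turned negative when libraries were scaled by size alone (-0.05).

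Slc3a2 encodes the heavy chain that carries SLC7A5 and SLC7A11 to the membrane. Slc3a2 stood at 164, 150.3 and 153 CPM in the MG-CM libraries, 489, 280.0 and 159.8 in the CM libraries and 163, 114 and 123 in the CM-JAKi libraries. CM replicate 3 lay within the control range. The difference in CM, 0.99 ± 0.34 (adjusted p = 0.0974), did not pass in edgeR and passed in DESeq2 (adjusted p = 0.0203), and Slc3a2 fell by 1.22 ± 0.34 (adjusted p = 0.0388) on inhibition. Slc7a5, the light chain for leucine and other large neutral amino acids, also had CM replicate 3 within the control range. Slc7a5 stood at 93.6, 86.6 and 111 CPM in the MG-CM libraries, 183, 158 and 92.3 in the CM libraries and 85.8, 69.7 and 86.5 in the CM-JAKi libraries. Its difference was 0.57 ± 0.23 (adjusted p = 0.142) in CM and -0.84 ± 0.23 (adjusted p = 0.0356) on inhibition. Slc1a5, the exchanger of glutamine and other neutral amino acids, was higher in each CM library than in each control library without passing in edgeR. Slc1a5 stood at 62.4, 67.7 and 74.3 CPM in the MG-CM libraries, 150.5, 115 and 75.9 in the CM libraries and 60.6, 61.3 and 72.9 in the CM-JAKi libraries. CM replicate 3 only just exceeded the highest control library, and the difference was 0.74 ± 0.21 (adjusted p = 0.0615) in CM, where DESeq2 called it (adjusted p = 0.0108), and -0.81 ± 0.21 (adjusted p = 0.0324) on inhibition. Slc1a4, a carrier of serine, alanine and cysteine, had 23.5, 36.4 and 44.9 CPM in MG-CM, 51.2, 63.3 and 34.7 in the CM libraries and 14.9, 26.6 and 29.5 in the CM-JAKi libraries. It was lower in every inhibited library than in every CM library, but its difference of -1.07 ± 0.33 (adjusted p = 0.0512) missed the threshold, and it passed with the replicate block (adjusted p = 0.0264) and in DESeq2 (adjusted p = 0.00696). Against MG-CM the CM difference was 0.51 ± 0.32 (adjusted p = 0.345). Of the 5 transporter calls in CM, Slc7a1, Slc7a3 and Slc7a11 were lost without MG-CM replicate 1 (adjusted p = 0.0534 to 0.0727), Slc7a3 without MG-CM replicate 3 (0.0627), Slc7a1 without CM replicate 1 (0.0682) or 2 (0.0580), and all 5 without MG-CM replicate 2 (0.0598 to 0.113). On inhibition, Slc1a5 and Slc7a5 were each lost without any 1 of 5 libraries, Slc3a2 without any 1 of 4 and Slc7a3 without CM-JAKi replicate 2 (adjusted p = 0.0513 to 0.130). With only the groups compared in the fit, Slc7a1 and Slc7a3 lost the call in CM (0.0614 and 0.0511), and Slc7a5, Slc3a2 and Slc1a5 on inhibition (0.0700 to 0.0840).

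**Figure D2:**
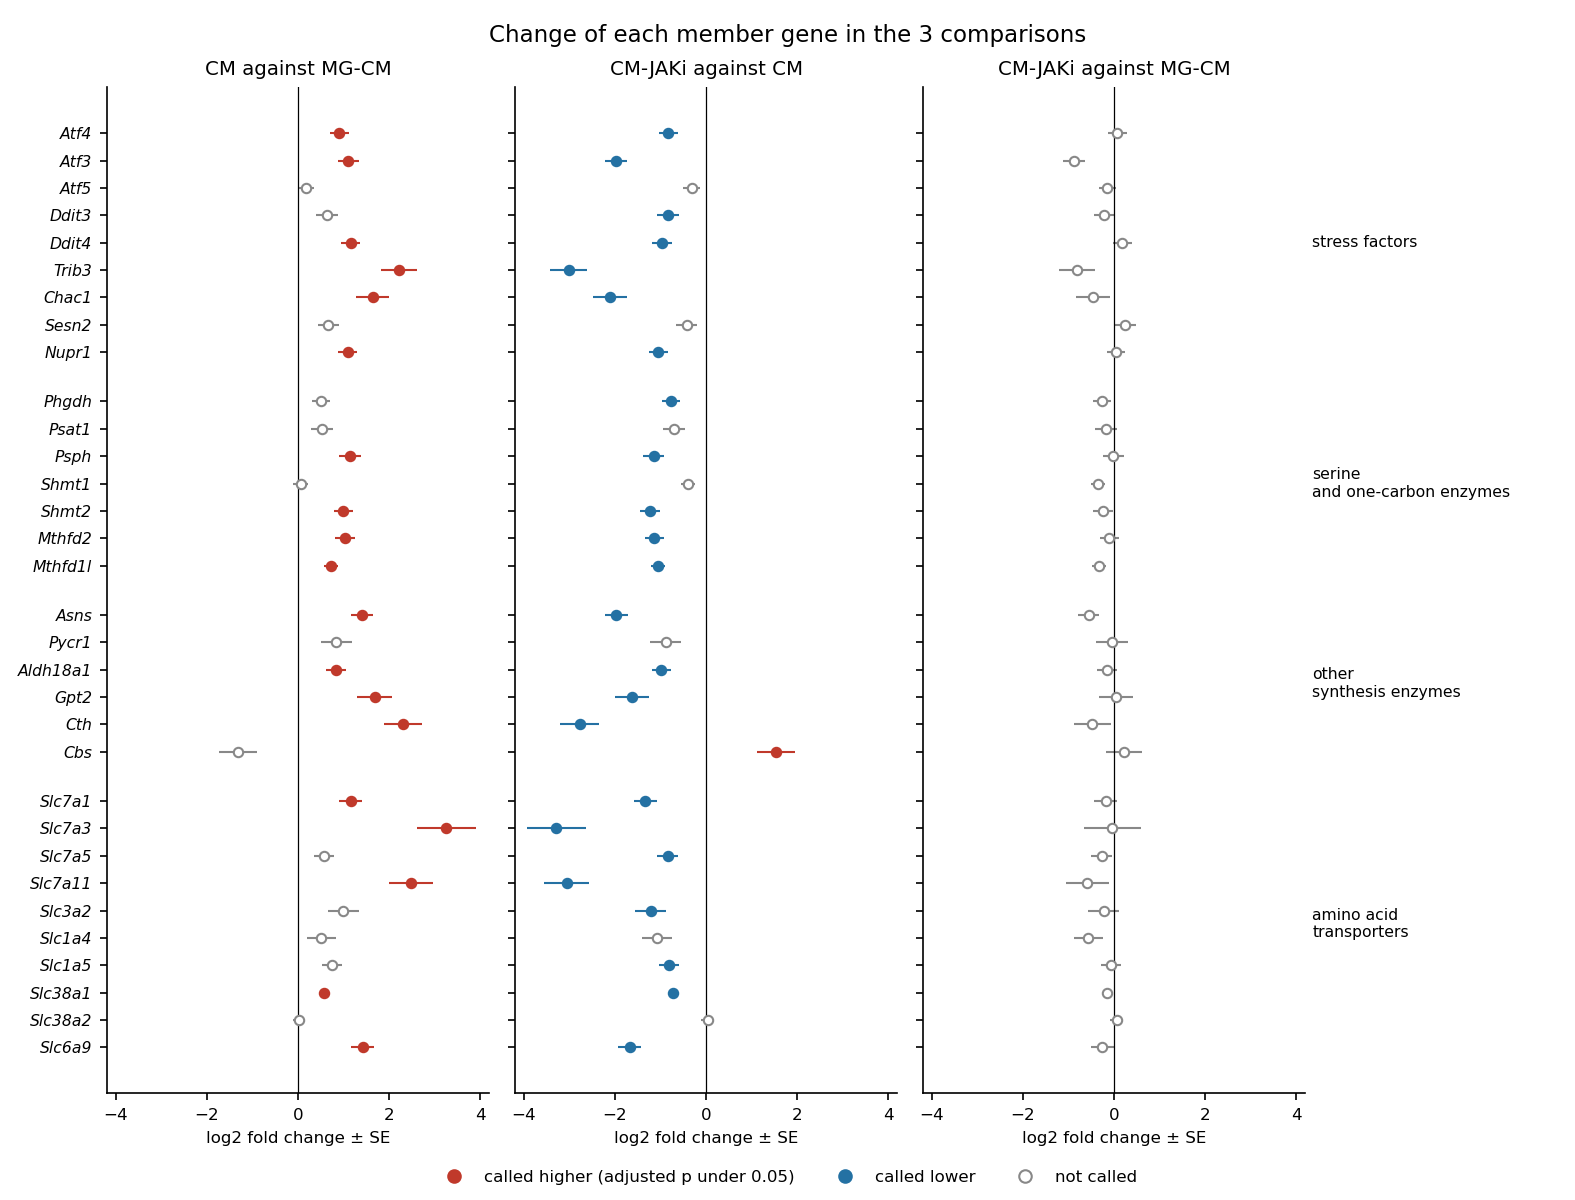
Log2 difference with its standard error for each of the 32 genes in the 3 comparisons, from edgeR over all genes, grouped by role, with filled points for an adjusted p under 0.05 and open points for the rest. Points lie right of 0 for 31 genes in CM against MG-CM and left of 0 for 30 genes in CM-JAKi against CM, and stay between -0.88 and 0.24 in CM-JAKi against MG-CM.

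In the direct comparison of inhibited cells in conditioned medium with cells in control medium, no member passed in edgeR. At an unadjusted p under 0.05, 0 were higher and 2, Atf3 and Asns, were lower (5.36% and 5.31% of all genes), and DESeq2 called 0 higher and 1, Atf3, lower (1.45% and 2.31% of all genes). The median log2 difference was -0.18, against 0.01 for all genes, with 25 of the 32 negative and 7 positive, against 48.9% and 51.1% of all genes. In 8 members the CM-JAKi libraries lay below all MG-CM libraries and in 0 above them, against 8.24% and 8.87% of all genes. Atf3 differed by -0.88 ± 0.24 (adjusted p = 0.169), and it passed with the replicate block (adjusted p = 0.0317) and in DESeq2 (adjusted p = 0.027). Asns differed by -0.56 ± 0.24 (adjusted p = 0.446). Trib3 had a log2 difference of -0.81 ± 0.39 (adjusted p = 0.522) and, like Atf3, was lower in each inhibited library than in each control library. Shmt1 differed by -0.35 ± 0.16 (adjusted p = 0.488) and passed with the replicate block (adjusted p = 0.0365), so that the block called 0 members higher and 2 lower (1.85% and 2.4% of all genes). For Mthfd1l the value was -0.34 ± 0.15 (adjusted p = 0.484), for Cth -0.47 ± 0.41 (adjusted p = 0.798), for Slc38a1 -0.16 ± 0.09 (adjusted p = 0.61) and for Slc1a4 -0.56 ± 0.33 (adjusted p = 0.622). Atf4 itself differed by 0.08 ± 0.20 (adjusted p = 0.952). A p over the threshold with 3 libraries a group does not show that the levels were equal.

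The differences were of unequal size across the replicate numbers. CM replicate 1, the PSC4 library, was the highest CM library in 26 of the 32 genes, and CM replicate 3 the lowest in 28, against 38.6% and 31% of all genes. In control medium the order was different: MG-CM replicate 3 was the highest in 22 genes and replicate 1 the lowest in 20, against 29.9% and 40.2% of all genes. Taken pair by pair within a replicate number, the median log2 difference of the members in CM against MG-CM was 1.47 in replicate 1, 0.88 in replicate 2 and 0.23 in replicate 3, with 30, 31 and 23 members positive. The same medians over all genes were all within 0.01 of 0. In CM-JAKi against CM, the medians were -1.54, -1.12 and -0.48, with 30, 30 and 28 members negative. Both comparisons use the same CM libraries. The pair differences of Atf4 in CM against MG-CM were 1.52, 0.78 and 0.28 for replicates 1, 2 and 3, those of Slc7a11 3.57, 2.41 and 0.58, and those of Mthfd2 1.75, 0.98 and 0.32. For Slc38a1 they were 0.62, 0.71 and 0.35, a narrower range.

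**Figure D3:**
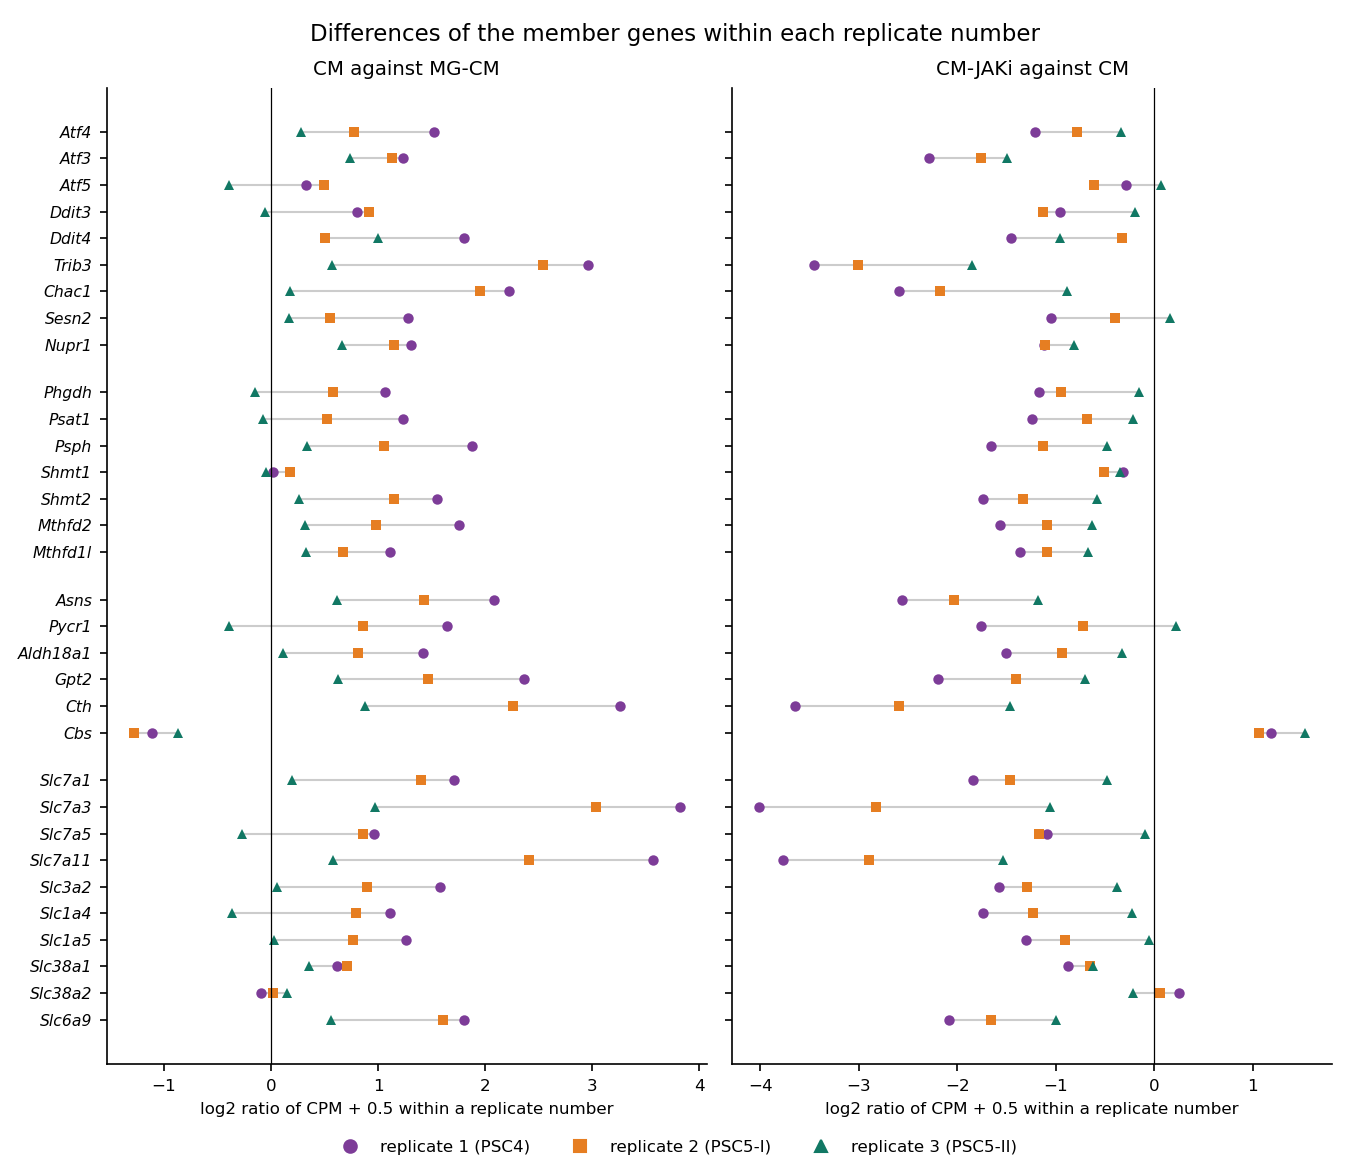
Log2 difference of each of the 32 genes within each replicate number, for CM against MG-CM and CM-JAKi against CM, as the log2 ratio of CPM plus 0.5, with a line joining the 3 replicates of a gene (replicate 1 is line PSC4, replicates 2 and 3 line PSC5). The medians over the genes are 1.47, 0.88 and 0.23 in the first comparison and -1.54, -1.12 and -0.48 in the second.

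A difference between the lines was tested as a line-by-medium term in the fit over all genes. In edgeR 0 members passed for CM against MG-CM, with 12 at an unadjusted p under 0.05 (15.5% of all genes), and 0 for CM-JAKi against CM, with 11 (12.9%). Of all genes, 0.228% and 0.367% were called. The lowest adjusted p among the members was 0.165 and 0.256. For Mthfd2 the difference in response, PSC4 minus PSC5, was 1.11 ± 0.26 (adjusted p = 0.165), and for Atf4 0.98 ± 0.25 (adjusted p = 0.173). DESeq2 with the same model called 7 members for CM against MG-CM, namely Atf4, Ddit4, Psat1, Psph, Mthfd2, Gpt2 and Cth, and 0 for CM-JAKi against CM (3.15% and 2.59% of all genes). Without CM replicate 2, edgeR called 10 and 9 members (0.908% and 0.886% of all genes), which leaves PSC5 with replicate 3 alone in CM. PSC4 had 1 library a group, so its spread was taken to be that of PSC5, and the 2 PSC5 replicates also differed from each other in the medians above.

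Upstream of Atf4, a list of eIF2alpha itself, its kinases, the phosphatase subunits that oppose them and the GCN2 inhibitor Impact had 1 of 8 genes called higher in CM, 1 of 8 called lower on inhibition and, in CM, a median log2 difference of 0.22. Of all genes tested, 4.85% were called higher in CM and 8.93% lower on inhibition. The gene called in both comparisons was Eif2ak2, which encodes PKR, the kinase for double-stranded RNA and an interferon-inducible gene. Its mean was 135 CPM in MG-CM, 315 in CM and 54.9 in CM-JAKi, with a log2 difference of 1.22 ± 0.17 (adjusted p = 0.00944) in CM and -2.52 ± 0.18 (adjusted p = 1.5e-04) on inhibition. It was also lower in CM-JAKi than in MG-CM, with a log2 difference of -1.30 ± 0.17 (adjusted p = 0.0128), and it kept its call in CM and on inhibition without each library in turn. Ppp1r15a, the stress-induced phosphatase subunit GADD34, differed by 0.66 ± 0.19 (adjusted p = 0.0633) and -0.60 ± 0.19 (adjusted p = 0.0598). DESeq2 called Ppp1r15a in both comparisons (adjusted p = 0.0147 and 0.0192). GCN2 is the kinase that senses amino acid shortage, and Impact differed by -0.51 ± 0.22 (adjusted p = 0.164) in CM and 0.62 ± 0.22 (adjusted p = 0.0796) on inhibition, and passed with the replicate block (adjusted p = 0.0131 and 0.00447). DESeq2 called Impact on inhibition (adjusted p = 0.0315). With the block, 2 genes of the list were called higher and 1 lower in CM (11.6% and 12.8% of all genes). On inhibition the block called 1 higher and 1 lower, where 18.6% and 15.6% of all genes were. In DESeq2, 2 genes of the list were higher and 0 lower in CM (8.87% and 9.62% of all genes). On inhibition DESeq2 called 1 higher and 2 lower (13.3% and 12.7% of all genes). Kinase activity is set by phosphorylation, which these data do not measure.

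Of 12 tested partners and further targets of ATF4, 6 rose in CM and 7 fell on inhibition, with medians of 0.72 and -0.77. Of all genes tested, 4.85% were called higher in CM and 8.93% lower on inhibition. Stc2, a secreted glycoprotein induced by stress, went from 8.98 CPM in MG-CM to 52.0 in CM and 14.1 in CM-JAKi. Stc2 differed by 2.53 ± 0.38 (adjusted p = 0.0099) on the log2 scale in CM and -1.87 ± 0.36 (adjusted p = 0.0109) on inhibition. Fgf21, a hormone induced by ATF4, was near 0 in control medium, at 0.103, 0.102 and 0.114 CPM, with 7.44, 2.66 and 0.394 in the CM libraries and 0.677, 0.269 and 0.387 in the CM-JAKi libraries (adjusted p = 0.0226 in CM). Its adjusted p on inhibition was 0.045, although the CM and CM-JAKi libraries overlapped. Eif4ebp1, which restrains cap-dependent translation, differed by 1.02 ± 0.24 (adjusted p = 0.0332) and -1.12 ± 0.24 (adjusted p = 0.016), and Cebpg, a dimer partner of ATF4, by 0.65 ± 0.16 (adjusted p = 0.04) and -0.82 ± 0.16 (adjusted p = 0.012). Cebpb and Xpot also rose, and both fell on inhibition, as did Vldlr. Rab32 had the 1 negative difference in CM, -0.61 ± 0.20 (adjusted p = 0.0824), with all CM libraries below all MG-CM libraries. DESeq2 called 7 genes of the list higher in CM and 1, Rab32 (adjusted p = 0.031), lower (8.87% and 9.62% of all genes). With the replicate block 6 were higher and 0 lower (11.6% and 12.8%). Without MG-CM replicate 1 or 2, Stc2 was the 1 gene of these 6 still called in CM. Without CM-JAKi replicate 2, it was the 1 of the 7 still called on inhibition. Cebpd was not analysed here.

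Among 25 other enzymes of amino acid and folate metabolism, 2 rose and 1 fell in CM, with a median of -0.04, where 4.85% of all genes were called higher and 5.39% lower. Bcat1, the cytosolic transaminase of branched-chain amino acids, differed by 1.39 ± 0.36 (adjusted p = 0.0457), and Aldh1l2, a mitochondrial folate enzyme, by 1.55 ± 0.41 (adjusted p = 0.0474). Gldc, the glycine cleavage enzyme, fell by 1.28 ± 0.34 (adjusted p = 0.0477). Mthfd2l, the mitochondrial paralogue of Mthfd2, had a log2 difference of -0.07 ± 0.11 (adjusted p = 0.722) in CM. On inhibition 3 fell and 0 rose (8.93% and 10.1% of all genes), with a median of -0.06: Bcat1 (-1.54 ± 0.36, adjusted p = 0.0224), Aldh1l2 (-1.68 ± 0.41, adjusted p = 0.0254) and Aldh1l1 (-1.98 ± 0.50, adjusted p = 0.0273). With the replicate block the counts in CM were 3 higher and 3 lower (11.6% and 12.8% of all genes), and on inhibition 4 lower and 2 higher (15.6% and 18.6%). All 3 calls on inhibition were lost without CM replicate 1 (adjusted p = 0.0591 to 0.0739) or CM-JAKi replicate 2 (0.0749 to 0.102). All 3 calls in CM were lost without MG-CM replicate 1 (adjusted p = 0.0823 to 0.118) or 2 (0.0884 to 0.163), or without CM replicate 1 (0.118 to 0.130) or 2 (0.0715 to 0.0880).

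Of 17 tested transporters outside the set, 0 rose and 1 fell in CM (4.85% and 5.39% of all genes), with a median of -0.12. At an unadjusted p under 0.05, 3 were higher and 2 lower (13.9% and 14.4% of all genes). DESeq2 called 1 higher and 2 lower (8.87% and 9.62% of all genes). Slc1a2, a glutamate carrier, fell from 1.91 to 0.192 CPM, with a log2 difference of -3.27 ± 0.50 (adjusted p = 0.0103), a call lost without MG-CM replicate 2 (adjusted p = 0.0519). Slc7a2, a further carrier of cationic amino acids, had a difference of 1.17 ± 0.39 (adjusted p = 0.0891), which passed with the replicate block (adjusted p = 0.00309), and the block called 2 higher and 1 lower (11.6% and 12.8% of all genes). On inhibition 2 of the 17 were called higher and 1 lower, where 10.1% and 8.93% of all genes were. Slc1a3 (1.45 ± 0.40, adjusted p = 0.0377) and Slc6a6 (0.63 ± 0.18, adjusted p = 0.042), which carry glutamate and taurine, rose, and Slc7a6 fell (-0.44 ± 0.12, adjusted p = 0.0381). None of the 3 kept its call under every omission, and the block called 5 higher and 1 lower (18.6% and 15.6% of all genes).

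Chaperones and regulators of the ATF6 and XBP1 branches, the other arms of the response to unfolded protein, had a median of 0.33 in CM and -0.31 on inhibition. The log2 difference was positive in 13 of 13 genes in CM and negative in 11 on inhibition, against 50.7% and 49.2% of all genes. In CM 7 were higher with no overlap and 7 at an unadjusted p under 0.05 (16% and 13.9% of all genes), and on inhibition 6 and 6 were lower by the same rules (18.3% and 16.2%). DESeq2 called 3 higher in CM and 5 lower on inhibition (8.87% and 12.7% of all genes). By edgeR, 4.85% of all genes were called higher in CM and 8.93% lower on inhibition. Of the 13 genes, 1 rose in CM, Xbp1 (0.71 ± 0.18, adjusted p = 0.0392), and the same gene fell on inhibition (-0.58 ± 0.18, adjusted p = 0.05, just under the threshold), where it did not pass with the replicate block (adjusted p = 0.0592). Both calls were lost without any 1 of 5 of the 6 libraries compared, CM replicate 3 being the exception (adjusted p = 0.0534 to 0.0941 in CM and 0.0605 to 0.141 on inhibition). Hspa5, the chaperone BiP, had means of 771, 1359 and 867 CPM in MG-CM, CM and CM-JAKi, and a log2 difference of 0.82 ± 0.25 (adjusted p = 0.0683) in CM and -0.65 ± 0.25 (adjusted p = 0.098) on inhibition. With the block, 2 of the 13 were called higher in CM and 3 lower on inhibition (11.6% and 15.6% of all genes). In CM-JAKi against MG-CM, 0 genes of these last 4 lists were called in either direction by edgeR, with 0, 3, 2 and 0 of them at an unadjusted p under 0.05 and 0, 1, 1 and 0 called by DESeq2, in the order given. Of all genes, edgeR called 0.286% higher and 0.72% lower there, and DESeq2 1.45% and 2.31%. At an unadjusted p under 0.05 the shares were 5.36% and 5.31%.

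**Figure D4:**
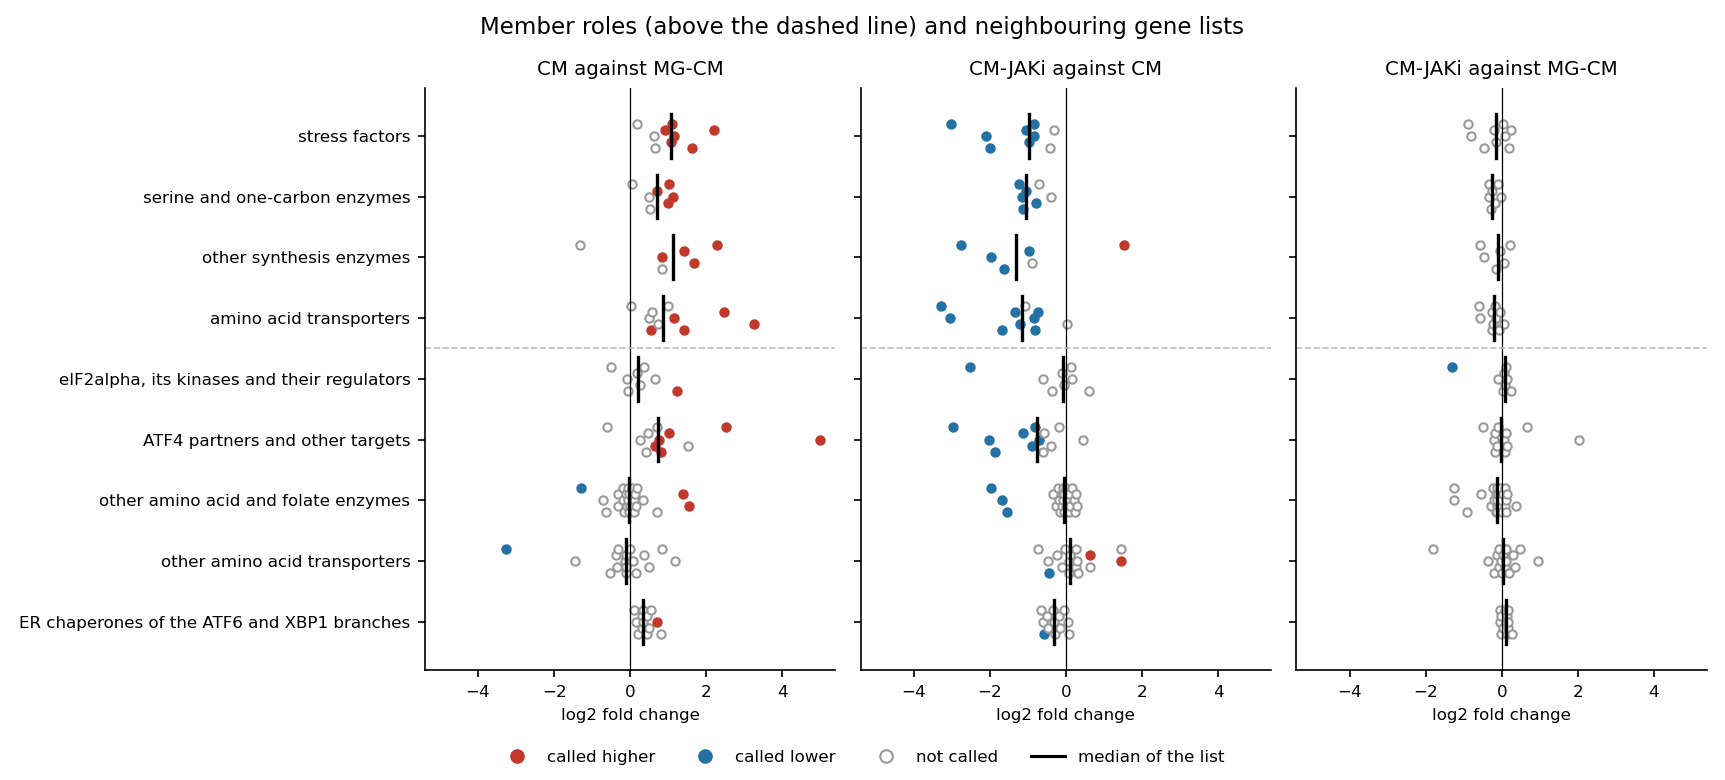
Log2 difference of every gene tested in the 4 roles of the 32 genes and in the 5 further lists of the pathway, for the 3 comparisons, with filled points for called genes and a bar at each list's median. The medians of the 4 roles run from 0.72 to 1.12 in CM against MG-CM and from -1.30 to -0.97 in CM-JAKi against CM, and those of the further lists from -0.12 to 0.72 and from -0.77 to 0.10.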

How the data were processed

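Total RNA of 9 cultures was rRNA-depleted and sequenced from stranded libraries on a NextSeq 500, per the labels' protocols. The deposited table holds expected counts per gene symbol, which are estimates that divide reads among transcripts and near-identical genes. STAR 2.5.1b, RSEM 1.2.29, DESeq2 and the builds NCBIM37 and mm9 are named, without roles, per the submitters' processing notes. Counts were rounded to whole numbers here. Groups came from the titles. Genes were kept with edgeR's filterByExpr (minimum count 10, minimum total 15), scaled by TMM and tested with edgeR 4.0.16's quasi-likelihood F-test (R 4.3.3, limma 3.58.1) on all 9 libraries with group terms, and p-values were adjusted by Benjamini-Hochberg over the 13613 genes kept. A gene was called at an adjusted p under 0.05. Log2 differences have a standard error from the F statistic. CPM use TMM-scaled library sizes, and pair differences add 0.5 CPM. Self-tests on simulated counts came first. Their spread between replicates was set low, so they do not show how well changes are found at the spread of these libraries. Alternatives were DESeq2 1.42.0, other scalings and filters, a replicate block and left-out libraries.

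The replicate numbers pair the samples, since the labels give same-numbered samples 1 stellate line. The labels state no paired model, so the main fit left this pairing out and the replicate block was an alternative. Deviations from group means correlated at 0.29 to 0.68 over the 9 same-numbered pairs and at -0.54 to 0.28 over the 18 others, across genes. The 32 genes and the further lists were chosen with earlier results of these data known. All 32 are named; full values go to Atf4, to genes called in any comparison, and to the 2 of each role with the smallest p per comparison. Of each further list up to 4 genes with the smallest p per comparison are named with values, and promoters are those of the 4 called genes with a match and the smallest p. Cebpb, Xpot and Vldlr are named without values, and Mthfd2l is given in CM as the paralogue of Mthfd2, not by its p. Rab32 is given in CM for its negative difference, not by its p. Promoter sequences are from RefSeq on GRCm38.p6. In the list of other amino acid and folate enzymes, 1 gene is not reported here and is left out of that list's counts.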

Additional observations from a re-analysis of the deposited data

How the results depend on the processing

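Leaving out a library or replicate number gave 0 to 24 members called higher in CM against MG-CM and 0 to 1 lower, and 0 to 26 lower and 0 to 1 higher in CM-JAKi against CM. With the 2 groups compared alone in the fit, 10 were higher in CM, and 18 lower and 0 (Cbs) higher on inhibition, where fewer samples estimate the spread. DESeq2 and the replicate block each called 1 member lower in CM (Cbs), and in CM-JAKi against MG-CM they called 1 and 2 lower. The block changed no call of a member other than those given beside it. In a check added after seeing the data, the block without replicate 1, 2 or 3 called 6, 1 and 27 higher (9.87%, 1.78% and 5.12% of all genes) and 1, 0 and 1 lower (10.6%, 1.74% and 5.91%) in CM, and 15, 6 and 28 lower on inhibition (14.6%, 4.9% and 7.99%); without replicate 1 it called 2 lower in CM-JAKi against MG-CM (3.57%). The line difference in CM against MG-CM was called for 7 members by DESeq2 and for 0 to 10 with a PSC5 library left out, and for 0 to 9 in CM-JAKi against CM. PSC4 libraries could not be left out of it. Scaling by library size alone moved the median log2 difference of all genes to 0.10 in CM-JAKi against CM. Uncalled members changed sign with it, at -0.013 for Shmt1 and -0.053 for Slc38a2 in CM, and 0.0097 for Psph in CM-JAKi against MG-CM. Others did so between omissions. In CM the log2 difference ran from -0.056 to 0.42 for Atf5, from -0.058 to 0.18 for Shmt1 and from -0.042 to 0.10 for Slc38a2, which ran from -0.10 to 0.16 on inhibition. In CM-JAKi against MG-CM it ran from -0.031 to 0.15 for Atf4, -0.12 to 0.14 for Nupr1, -0.38 to 0.062 for Psat1, -0.17 to 0.10 for Psph, -0.26 to 0.069 for Mthfd2, -0.18 to 0.11 for Pycr1, -0.062 to 0.12 for Gpt2, -0.14 to 0.50 for Cbs, -0.16 to 0.099 for Slc7a3 and -0.081 to 0.13 for Slc38a2. The cause of these changes was not tested.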
